A study of Mus musculus with 18 samples.

Results

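Macrophages of TLR4-K810R mice were compared with macrophages of TLR4-K730R mice in the absence of LPS. The comparison holds 6 libraries of the 18 in the series, 3 mock-treated K810R and 3 mock-treated K730R, which were chosen by their genotype and treatment labels alone. Both mutants were made on a C57BL/6 background with CRISPR/Cas9 and replace a lysine in the TIR domain of TLR4 with arginine, in all cells of the mouse rather than in macrophages only. Cells were peritoneal macrophages elicited with thioglycollate. Total RNA was isolated for RNA-seq on an Illumina platform, and the methods of the study do not give the library type. The remaining groups, with 3 libraries each, were TLR4-WT cells without LPS and the same 3 genotypes after 100 ng/mL LPS for 6 h. The labels do not say whether libraries of a group came from separate mice, so p-values measure the spread between these libraries, which may be technical, and the number of founder lines and the zygosity were not given in the sources used here. The question was how far the 2 mutants differ before any stimulus, when the receptor has not been engaged by added LPS.

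TLR4 is the receptor for bacterial LPS, which it binds together with MD-2 (Ly96) after transfer from CD14. Its cytoplasmic TIR domain recruits the adaptors MAL and MyD88, which lead to NF-κB and AP-1, and the adaptors TRAM and TRIF, which lead to IRF3 and interferon genes. Acetylation neutralizes the charge of a lysine, and arginine at the same position keeps the charge but cannot be acetylated by the same enzymes. Macrophages drawn from the peritoneum after thioglycollate are mostly of monocyte origin and are already exposed to the irritant before culture.

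Both mutated codons lie in exon 3 of Tlr4 (ENSMUSG00000039005, chr4:66827584-66930284, plus strand, GRCm38), in its coding part, 80 codons apart. The reference coding sequence around each codon is shown because the position of the change is the only designed difference between the groups. The mutated codon is in capitals, and the stretches are chr4:66841129-66841191 for codon 730 and chr4:66841369-66841431 for codon 810.
Tlr4 codon 730: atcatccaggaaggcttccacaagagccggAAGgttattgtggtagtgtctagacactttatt
Tlr4 codon 810: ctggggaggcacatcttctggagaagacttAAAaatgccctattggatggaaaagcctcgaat
By the methods of the study, AAG became CGC in K730R, a change of 3 bases, and AAA became CGA in K810R, a change of 2 bases. Codon 810 ends 75 bases before the end of the coding sequence and codon 730 ends 315 bases before it. The deposited values do not hold the mutated bases, so the level of Tlr4 does not check the genotype labels.

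Values are FPKM, fragment counts scaled to transcript length and sequencing depth, summed per gene over first-exon or last-exon events. Over the 6 libraries, 9707 genes were tested, and Pearson's r of the log2 values across these genes lay between 0.961 and 0.971 for libraries of the same group and between 0.952 and 0.968 for libraries of different groups. K810R replicate 3 stood apart from the other mock-treated libraries, with a lower quartile of 3.24 FPKM over tested genes against 2.45 to 2.73 in the other 8. The macrophage markers were high in all 6 libraries, with Lyz2, the macrophage lysozyme, between 10375 and 13291 FPKM and the mean log2 level of 16 tested markers between 8.17 and 8.18 in K810R and between 8.23 and 8.33 in K730R. Cd14 was listed at 0 in 17 of 18 libraries, which in these files can be a failed estimate. Of the T and NK cell markers, the cytokine receptor gene Il7r alone was high enough to test, at 65.9 to 93.0 FPKM in K810R and 45.4 to 68.1 in K730R (log2 difference 0.51, adjusted p = 0.52), and the others with a value, among them Cd3d and Cd4, were at most 0.490 FPKM in the 6 libraries. The 5 tested B cell markers summed to 27.6 to 37.2 FPKM in K810R and 39.4 to 48.6 in K730R. Markers of intestinal epithelium summed to 88.9 to 199 FPKM in K810R, 70.0 to 103 in K730R and at most 4.67 in mock-treated TLR4-WT libraries, with the highest sum in K810R replicate 3. Their part in the differences below was not tested.

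Few genes separated the mutants without LPS. At an adjusted p below 0.01, 8 of 9707 genes were called (0.0824%), 7 lower and 1 higher in K810R. With no filter on low values there were 20, 11 lower and 9 higher. The 7 lower genes were the chemokines Ccl5 and Ccl8, the scavenger receptor Marco, the acute-phase protein haptoglobin (Hp), the secreted protein Retnla, and the enzymes Ptges and Ass1. The higher gene was Bcar1, the adaptor protein p130Cas of integrin signalling. At an adjusted p below 0.05 there were 45 genes (0.464%), 23 higher and 22 lower. The split depended on scaling: with libraries scaled by the median of ratios, 53 genes passed at 0.05, 20 of them higher, and 12 at 0.01, all lower. At an unadjusted p below 0.05 there were 1013 genes. It also depended on K810R replicate 3, since without it 7 were higher and 21 lower at 0.05, and 1 was higher and 10 lower at 0.01. The median difference of all genes was 0.05 on the log2 scale, and 5744 genes had a positive and 3916 a negative difference. The median-of-ratios scaling turned this balance, with 4617 genes positive, a median of -0.01, and 442 higher and 507 lower at an unadjusted p below 0.05, against 666 and 347. Without K810R replicate 3 there were 424 higher and 410 lower. The shares of all genes given beside the lists are those without such scaling. The filter on low values counted K810R libraries too, so a low gene could enter because it was high there. Among the 23 higher genes, Gpx8, Hand2 and Cavin2 would not have passed the filter without K810R libraries.

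**Figure D1:**
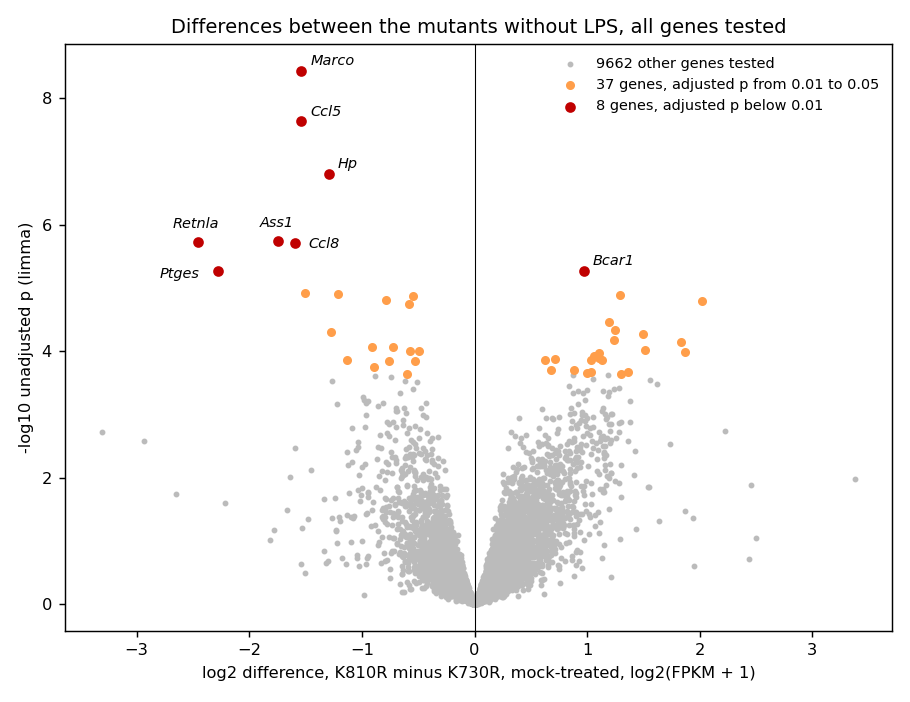
Each point is a gene, with the log2 difference between mock-treated K810R and K730R on the x axis and the unadjusted limma p as -log10 on the y axis. The 8 genes called at 0.01 are labelled, and 7 of them lie on the left, lower in K810R.

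Marco, a macrophage scavenger receptor for bacteria and particles, had the smallest p of all genes. Its FPKM was 105, 109 and 111 in the K730R libraries and 39.2, 29.6 and 42.3 in the K810R libraries. The groups were well separated, the highest K810R library being below the lowest K730R library, and TLR4-WT libraries had 135, 136 and 152. The mean in K810R was 2.92-fold lower, with a log2 difference of -1.54 ± 0.13 (SE, limma, n = 3 per group, adjusted p = 3.6e-05). Marco is on chr1:120474538-120505024 (GRCm38, minus strand).

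The chemokines Ccl5 and Ccl8 both attract leukocytes to inflamed tissue, and Ccl5 (RANTES) is induced through NF-κB and IRF3 in LPS-treated macrophages. Ccl5 stood at 64.1, 66.2 and 49.9 FPKM in K730R and at 22.1, 18.5 and 19.2 FPKM in K810R, a 3.01-fold lower mean (log2 difference -1.54 ± 0.15, adjusted p = 0.00011). TLR4-WT libraries had 80.2, 76.2 and 82.2 FPKM, above both mutants. For Ccl8 (MCP-2) the K730R libraries held 5.09, 5.39 and 5.07 FPKM and the K810R libraries 1.19, 1.79 and 0.417 FPKM, a 4.58-fold lower mean (log2 difference -1.59 ± 0.22, adjusted p = 0.0031). Here the TLR4-WT libraries lay between the mutants, at 2.11, 2.37 and 2.71 FPKM. Of 24 tested chemokines and chemokine receptors these 2 were called, against 0.0824% of all genes, and the median difference of the list was 0.07. At an unadjusted p below 0.05, 4 members were lower, the called genes with the neutrophil attractants Cxcl2 and Cxcl3 (adjusted p = 0.33 and 0.35), and 0 higher, against 3.57% and 6.86% of all genes. Of the 24, 13 had a positive difference.

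Hp, the haemoglobin-binding protein of the acute phase, was the most abundant called gene. Its values were 428, 453 and 408 FPKM in K730R, 197, 164 and 165 in K810R and 256, 254 and 294 in TLR4-WT. Both mutants thus lay outside the TLR4-WT values, K730R above and K810R below. The K810R mean was 2.46-fold below K730R (log2 difference -1.30 ± 0.14, adjusted p = 0.00051).

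Retnla (RELMα, Fizz1) is a product of IL-4-activated macrophages. Its FPKM was 21.0, 16.8 and 15.5 in K730R and 2.88, 1.28 and 3.42 in K810R, with 33.8, 28.7 and 30.2 in TLR4-WT. No K810R library came near the lowest K730R value, and the mean was 7.03-fold lower (log2 difference -2.46 ± 0.33, adjusted p = 0.0031). Retnla was the only called gene among 14 tested genes of alternative activation, against 0.0824% of all genes. The median difference of the list was 0.04, close to that of all genes. Without K810R replicate 3 that median was -0.08, with 4 of 14 positive, and without K810R replicate 1 it was 0.13.

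Ptges, the inducible prostaglandin E synthase that acts downstream of COX-2, and Ass1, the enzyme that rebuilds arginine from citrulline, varied more between K730R libraries. Ptges had 16.9, 44.8 and 42.5 FPKM in K730R and 6.09, 6.02 and 5.23 in K810R (log2 difference -2.28 ± 0.34, adjusted p = 0.0066). K730R replicate 1 held less Ptges than the other libraries of its group but still more than every K810R library, and TLR4-WT libraries spread from 14.6 to 34.5. Ass1 had 16.7, 28.1 and 24.9 FPKM in K730R and 6.50, 7.78 and 4.39 in K810R (log2 difference -1.74 ± 0.23, adjusted p = 0.0031), with 19.0 to 37.1 in TLR4-WT. Nos2, whose product uses the arginine that Ass1 regenerates, was at most 1.15 FPKM in the 6 libraries and did not differ detectably (log2 difference -0.45, adjusted p = 0.82).

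Bcar1 was at a low level in all libraries. It stood at 1.35, 1.46 and 1.35 FPKM in K730R, at 3.44, 3.36 and 4.29 in K810R and at 0.856, 0.762 and 1.03 in TLR4-WT. The K810R libraries were all higher than the other mock-treated libraries, with a log2 difference from K730R of 0.97 ± 0.14 (adjusted p = 0.0066).

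**Figure D2:**
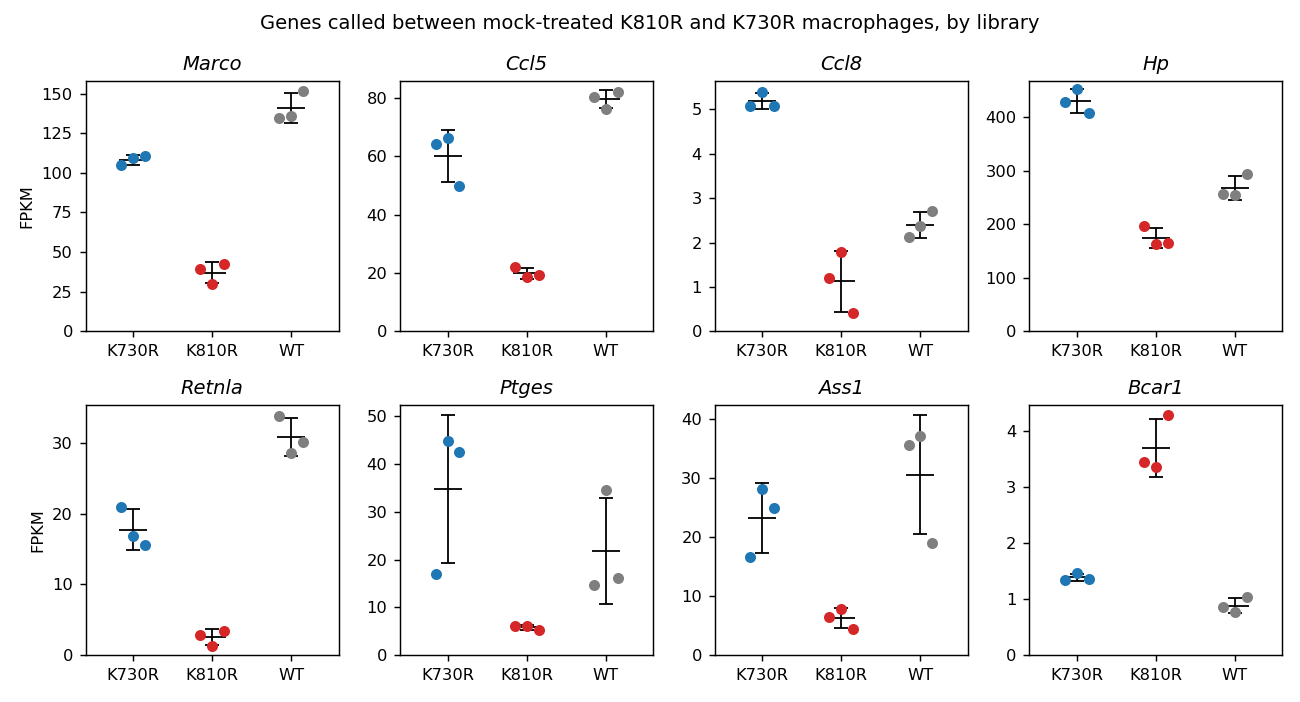
FPKM of the 8 called genes in each mock-treated library (points), with the mean and SD of 3 libraries per group (black), each panel on its own linear axis from 0. K810R points lie below all K730R points in 7 panels and above them for Bcar1.

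The calls depended on which libraries entered the fit. With the 6 compared libraries alone, none of the 8 genes was called. Marco, Ccl5 and Hp kept an adjusted p below 0.01 in all 6 fits that left out a library of either group, with the highest adjusted p at 0.00056, 0.0018 and 0.0069. Ass1 and Ccl8 kept it in 2 of 6 fits and reached 0.0332 in the others. Ass1 lost it without K810R replicate 1 or 3 or K730R replicate 2 or 3, and Ccl8 without K810R replicate 1 or any K730R library. Retnla kept it only without K810R replicate 3, with a highest value of 0.0300, and Ptges only without K730R replicate 1, with a highest value of 0.0485. Bcar1 passed in none of the 6, its adjusted p being 0.0145 to 0.0367. All 8 genes kept their direction in each of these fits.

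Below the 0.01 threshold, Ly6c2, a surface marker of inflammatory monocytes, was next among the lower genes with 22.9, 27.1 and 25.4 FPKM in K730R and 9.42, 10.8 and 5.27 in K810R (log2 difference -1.51 ± 0.24, adjusted p = 0.0108). It has close paralogs among the Ly6 genes, which may share its reads. Among genes with larger values in K810R, 7 came next in order of p. Hand2, a transcription factor of mesenchyme, had 0.522, 0.485 and 0.521 FPKM in K730R and 2.05, 2.37 and 3.86 in K810R (adjusted p = 0.0108), and Wt1, a transcription factor of mesothelium, had 1.53, 1.14 and 0.224 in K730R and 5.15, 5.27 and 10.5 in K810R (adjusted p = 0.0113). Cyclin A2 (Ccna2) had 1.03, 0.762 and 0.935 FPKM in K730R and 2.56, 2.95 and 4.91 in K810R (adjusted p = 0.0207). In each of these 3 genes K810R replicate 3 was the highest library. The same held for Cavin2, a component of caveolae, at 6.33 FPKM in that library against 2.40 to 3.15 in the others of its group, for the receptor-binding adaptor Grb10 at 16 against 5.82 to 7.27, and for the membrane protein Tm4sf1 at 17.8 against 7.56 to 9.23. Gpatch1, a G-patch protein, had 0.205 to 1.08 FPKM in K730R and 1.83 to 3.53 in K810R, with 2.07 to 2.5 in TLR4-WT. None of these 8 passed at 0.01. Of the 23 genes higher at an adjusted p below 0.05, K810R replicate 3 was the highest K810R library for 19.

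Markers of mesothelium and fibroblasts, the cells that line and support the peritoneal wall, had larger values in K810R. All 11 tested members of 18 listed had a positive difference, with a median of 1.19 against 0.05 for all genes. The filter on low values counted K810R libraries, so a low member could enter the test because it was high there. In 10 of 11 the unadjusted p was below 0.05 with the higher value in K810R, against 6.86% of all genes, and 9 of 11 had no overlap between groups with K810R higher, against 12.6% of all genes. None was called at 0.01, and Wt1 alone passed at 0.05. Decorin (Dcn), a proteoglycan of the collagen matrix, had 5.97, 7.09 and 5.85 FPKM in K730R and 16.8, 13.2 and 43.0 in K810R (adjusted p = 0.0576). Col1a2, a chain of type I collagen, had 23.2 to 25.8 FPKM in K730R and 48.5, 44.7 and 92.4 in K810R (adjusted p = 0.12). The summed FPKM of the list was 99.1 to 124 in K730R, 188 to 496 in K810R and 55.9 to 82.0 in TLR4-WT, and the value of 496 was that of K810R replicate 3. Without that library the median was 0.75, all 11 differences stayed positive and 5 had an unadjusted p below 0.05. In bulk RNA, more cells of this kind and more of these transcripts per cell cannot be told apart.

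Genes of DNA replication and the cell cycle also had larger values in K810R. Of 26 tested, 24 had a positive difference and the median was 0.61. The unadjusted p was below 0.05 for 17 with the higher value in K810R, against 6.86% of all genes, and for 1, the cell cycle inhibitor Cdkn1a, with the lower value. Ccna2 and Mcm7, a subunit of the replicative helicase, passed at an adjusted p below 0.05 and none at 0.01. Mcm7 had 1.17, 2.7 and 0.944 FPKM in K730R and 8.66, 6.76 and 9.07 in K810R (log2 difference 1.86 ± 0.36, adjusted p = 0.0376). The mitotic kinase Plk1 had 2.14, 1.84 and 1.40 FPKM in K730R and 4.33, 3.45 and 5.11 in K810R (adjusted p = 0.0678). Without K810R replicate 3 the median was 0.45, with 10 members at an unadjusted p below 0.05 and none past 0.05 after adjustment, and without K730R replicate 1 or 3 none passed at 0.05 either. The mean log2 level of the list was 1.93 to 2.16 in K730R, 2.51 to 3.02 in K810R and 1.97 to 2.07 in TLR4-WT. The summed FPKM, which the most abundant members set, overlapped, at 335 to 356 in K730R and 298, 362 and 411 in K810R replicates 1, 2 and 3. K810R replicate 3 was highest in this list as in the mesothelial list, and whether the lists share a source was not tested.

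**Figure D3:**
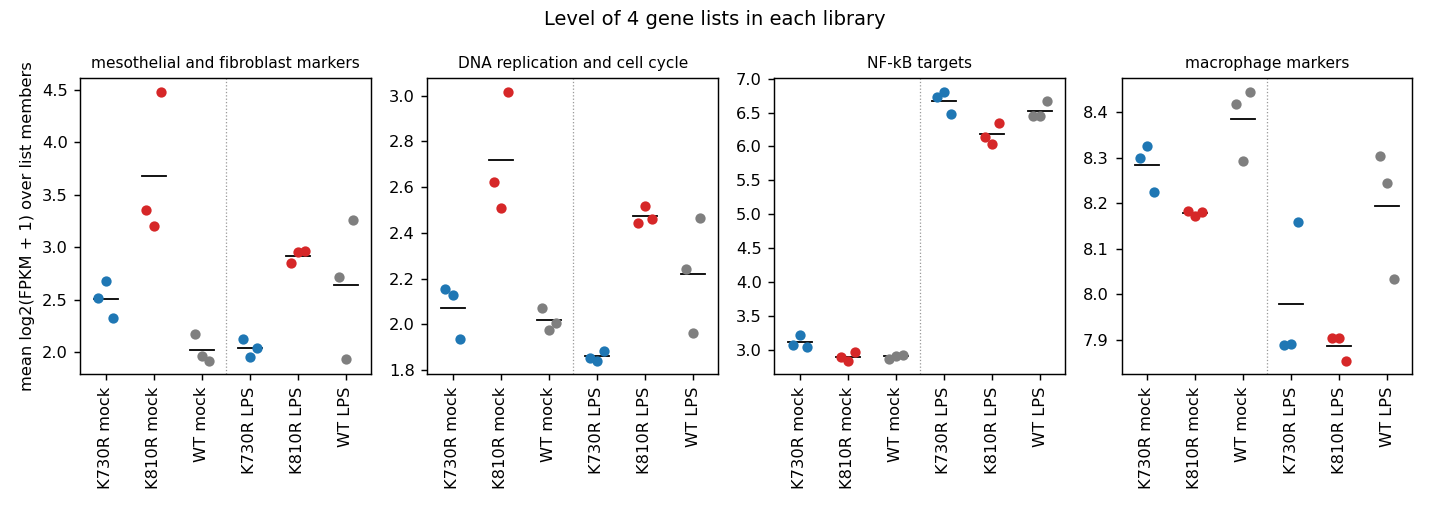
Mean log2(FPKM + 1) over the tested members of 4 gene lists in each of the 18 libraries (points), with the group mean (line), mock-treated groups left of the dotted line and LPS groups right of it, each panel on its own axis. In the first 2 panels the K810R points lie above the K730R points without and with LPS.

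No gene of the TLR4 pathway passed the test. Tlr4 had 12.1, 9.31 and 9.85 FPKM in K730R, 11.9, 11.7 and 13.9 in K810R and 11.6, 14.2 and 9.33 in TLR4-WT, and the groups overlapped (log2 difference 0.24 ± 0.15, adjusted p = 0.64). None of 22 tested members of the receptor complex and MyD88 pathway was called, 11 differences were positive and 11 negative, and the median was -0.03. The most abundant members were Cd180, a TLR4-like inhibitor on B cells and macrophages, at 32.5, 39.3 and 23.6 FPKM in K730R and 65.1, 44.1 and 68.7 in K810R (adjusted p = 0.36), Tollip, a negative regulator of IRAK1, at 46.1 to 48.4 in K730R and 42.7 to 46.3 in K810R, and Ikbkg, the NEMO subunit of the IκB kinase, at 32.3 to 54.7 in K730R and 22.8 to 31.5 in K810R (adjusted p = 0.36). Irak3, an inhibitor of the pathway, had 13.3 to 17.4 FPKM in K730R and 9.27 to 11.6 in K810R (adjusted p = 0.25). Myd88 had a log2 difference of 0.00023 ± 0.09, and Tirap, which encodes MAL, of -0.09, with adjusted p of 1 and 0.89.

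NF-κB target genes had, on balance, smaller values in K810R than in K730R. The mean log2 level of the list was 2.84 to 2.97 in K810R, 3.05 to 3.22 in K730R and 2.87 to 2.94 in TLR4-WT, so K810R overlapped TLR4-WT and K730R lay above both. Of 28 tested, 19 had a negative difference, the median was -0.17, and 10 had an unadjusted p below 0.05, all lower in K810R, against 3.57% of all genes. Without overlap between groups, 10 members were lower in K810R, against 6.04% of all genes, and 3 higher, against 12.6%. None was called at 0.01, and 3 passed at 0.05, against 0.464% of all genes. Icam1, the adhesion receptor for leukocyte integrins, had 45.3, 45.5 and 42.1 FPKM in K730R and 31.3, 25.7 and 31.1 in K810R (log2 difference -0.58 ± 0.10, adjusted p = 0.0116), and the TLR4-WT values of 42.1 to 47.5 overlapped those of K730R. Tnfaip3 (A20), a feedback inhibitor of NF-κB, had 30.6, 31.5 and 29.3 FPKM in K730R and 21.0, 23.6 and 19.6 in K810R (log2 difference -0.49, adjusted p = 0.0371). Relb, an NF-κB subunit, had 24.5, 25.2 and 25.1 FPKM in K730R and 17.6, 14.9 and 17.1 in K810R (log2 difference -0.57, adjusted p = 0.0371). Tnf had 18.9, 20.2 and 17.7 FPKM in K730R against 11.8, 10.3 and 14.0 in K810R, just short of 0.05 (adjusted p = 0.0539). Il6 and Il12b, which LPS induces strongly, were at most 0.190 and 0.385 FPKM in the 6 libraries, so a difference there was not detectable. Without K810R replicate 3 the median was -0.12, and 2 members passed at 0.05. Without K730R replicate 1 or without K730R replicate 2 none passed at 0.05, with medians of -0.27 and -0.19, and without K810R replicate 1 a single member passed. With libraries scaled by the median of ratios 5 passed, all lower.

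Interferon-stimulated genes did not pass at either threshold, except that Oas2, an antiviral enzyme gene lower in K810R, passed at 0.05 without K810R replicate 2. Of 46 tested, 30 had a negative difference, the median was -0.15, and 8 were lower and 3 higher in K810R at an unadjusted p below 0.05, against 3.57% and 6.86% of all genes, so the higher count was near the background. Oasl1 had 11.1, 11.7 and 9.55 FPKM in K730R and 4.76, 4.19 and 6.06 in K810R (adjusted p = 0.0821), Ifit3 had 6.00 to 7.22 and 3.60 to 4.17 (adjusted p = 0.13), and Gbp2 went the other way with 6.48 to 8.79 and 10.8 to 16.4 (adjusted p = 0.18). The mean log2 level of the list was 2.66 to 2.76 in K730R and 2.51 to 2.64 in K810R, and both mutants lay below the 3.78 to 3.88 of TLR4-WT.

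The remaining lists with several members lower in K810R concerned antigen presentation, scavenging and the oxidative stress response. In MHC class I presentation, 13 of 17 tested members had a negative difference with a median of -0.20, and 6 had an unadjusted p below 0.05, all lower in K810R, against 3.57% of all genes. The nonclassical gene H2-M2 had 5.20, 4.75 and 4.10 FPKM in K730R and 1.45, 1.65 and 3.25 in K810R and passed at 0.05 (adjusted p = 0.0367), which it did not without K810R replicate 1 or 2 or K730R replicate 1 or 2, whereas H2-K1, a classical heavy chain, had 680 to 915 in K730R and 443 to 468 in K810R (adjusted p = 0.13). H2 genes resemble each other closely, so reads may be split between them. Among scavenger and phagocytic receptors, Marco was called and Clec4e (Mincle), a receptor for glycolipids, passed at 0.05, against 0.0824% of all genes at 0.01 and 0.464% at 0.05. Of the 15 tested members 11 had a negative difference, where 3916 of 9707 genes were negative, and 4 were lower and 0 higher at an unadjusted p below 0.05, against 3.57% and 6.86% of all genes. Clec4e had 81.3, 83.3 and 78.7 FPKM in K730R and 30.6, 31.1 and 42.9 in K810R (adjusted p = 0.0108), and did not pass at 0.05 without K810R replicate 1 or K730R replicate 2. Of 18 antioxidant and metallothionein genes 16 had a negative difference with a median of -0.23, where 3916 of 9707 genes were negative, and none passed. At an unadjusted p below 0.05, 4 were lower and 1 higher, against 3.57% and 6.86% of all genes. Without overlap, 8 were lower and 1 higher, against 6.04% and 12.6%. With median-of-ratios scaling or without K810R replicate 2, Prdx1 passed at 0.05. Prdx1, a peroxiredoxin, had 1443, 1297 and 1433 FPKM in K730R and 612, 983 and 707 in K810R (adjusted p = 0.0508), while the metallothionein Mt2 had 17.5 to 18.5 in K730R and 22.9 to 49.2 in K810R (adjusted p = 0.23). Of 15 tested resident peritoneal macrophage genes Marco, also in the scavenger list, was the only member called, against 0.0824% of all genes. At an unadjusted p below 0.05, 4 were lower and 2 higher in K810R, against 3.57% and 6.86% of all genes. Of the 15 differences 10 were negative, where 3916 of 9707 genes were negative. The mean log2 level of the list was 3.52 to 3.91 in K810R and 3.86 to 3.92 in K730R, which overlap. Cd5l, a secreted scavenger protein of tissue macrophages, came close to the 0.05 threshold (log2 difference -0.74, adjusted p = 0.0516).

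**Figure D4:**
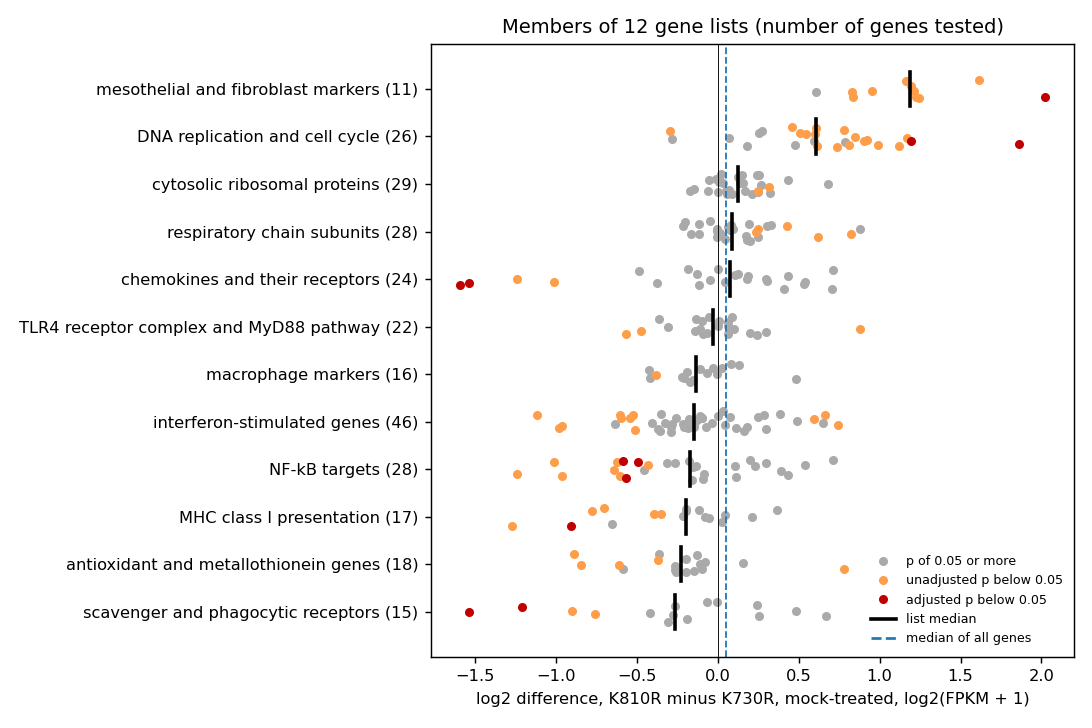
Each point is a tested gene of a list, with its log2 difference between mock-treated K810R and K730R on the x axis, in orange at an unadjusted p and in red at an adjusted p below 0.05, black bars marking list medians and the dashed line the median of all genes at 0.05. The 2 upper lists lie to the right, with medians of 1.19 and 0.61, and the lower lists scatter around medians between -0.26 and 0.12.

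Several lists held no called gene. In MHC class II presentation the median was -0.19 over 11 genes. H2-Aa, H2-Ab1 and H2-Eb1, which encode class II chains, had an unadjusted p below 0.05 with the smaller value in K810R (adjusted p = 0.12, 0.30 and 0.44). With the larger value there were 0 genes. Without K810R replicate 3 the median was -0.04, and without K810R replicate 2 only 1 gene had the smaller value at that threshold. Cytosolic ribosomal proteins had a median of 0.12 over 29 genes, respiratory chain subunits of 0.09 over 28, glycolysis and TCA genes of 0.01 over 24, lysosomal hydrolases and proton pump subunits of 0.02 over 24, and lysine acetyltransferases and deacetylases of 0.09 over 23, with none called. At an unadjusted p below 0.05 these lists held 2 ribosomal and 5 respiratory chain genes with the larger value in K810R, 1 glycolytic or TCA gene with the larger and 3 with the smaller value, 2 lysosomal genes with the larger value, and 1 acetyltransferase or deacetylase gene in each direction. Over all genes the shares were 6.86% with the larger and 3.57% with the smaller value. Thus 2 of 29 ribosomal genes matched the background and 5 of 28 respiratory chain genes lay above it. The count of 5 became 3 without K810R replicate 3, K730R replicate 1 or K730R replicate 2, and with median-of-ratios scaling. Acod1, which makes itaconate, had 64.9 to 67.0 FPKM in K730R and 27.9 to 32.1 in K810R without passing (adjusted p = 0.12). Neutrophil markers had a median of 0.03 over 8 genes and dendritic cell markers of -0.14 over 5, and none of either was called. The neutrophil markers S100a9 and Mmp8, 2 of 8, had an unadjusted p below 0.05 with the larger value in K810R. With the smaller value there were 0, against 6.86% and 3.57% of all genes. The mean log2 level of the neutrophil list was 2.71 to 2.86 in K810R, at most 2.63 in K730R and 2.82 to 2.98 in TLR4-WT, its summed FPKM of 104 to 118 in K810R overlapped the 99.4 to 108 of K730R, Camp was listed at 0 in all 6 libraries, and the part of these cells in the results was not tested. Among intestinal markers 12 of 18 had a positive difference with a median of 0.20, and none was called. Single libraries decided that median, which was -0.13 with 7 of 18 positive without K810R replicate 3 and 0.36, 0.47 and 0.43 without K810R replicate 1, K810R replicate 2 and K730R replicate 1. Without K730R replicate 3 it was 0.10.

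The called genes were scattered over 5 chromosomes, with 3 pairs that shared a chromosome. Ptges and Ass1 lie 540 kb apart on chr2 with 8 tested genes between them, Ccl8 and Ccl5 lie 1409 kb apart on chr11 with 15 between them, and Hp and Bcar1, which differed in opposite directions, lie 2131 kb apart on chr8 with 21 between them. None of the genes between the members of a pair had an unadjusted p below 0.05. No tested gene other than Tlr4 lay within 1 Mb of it, so the expression of its neighbours gave no value.

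Promoters in RefSeq (GRCm38) were searched on both strands for the NF-κB consensus, the ISRE, as GAAA and GAAA with any 2 bases between them, the AP-1 site TGANTCA and the STAT6 site, as TTC and GAA with any 4 bases between them. Of the 8 called genes, 6 had a promoter in this set, and none of these 6 held the first 3 motifs. Ccl5 and Hp had none there and were not searched. The STAT6 letters were in the promoters of Retnla and Ptges, against 6.95% of 32851 promoters. Of 19 NF-κB targets with a promoter, 10 held the NF-κB consensus in at least 1 listed promoter (52.6% of these genes), against 4.51% of all promoters. The AP-1 site was in 4 of the 19 (21.1%), against 7.81% of all promoters. Tnfaip3 alone held the STAT6 letters, and 0 held the ISRE. The 250 bases before the start site are shown for Retnla, the gene with the largest fold among those called, and for Tnfaip3, an NF-κB target that passed at 0.05, with the matches in capitals. The Retnla match is the STAT6 site, on chr16:48842359-48842608 (plus strand), and those of Tnfaip3 are, in order, a STAT6 site, an AP-1 site and 2 NF-κB sites without overlap, on chr10:19015411-19015660 (minus strand).
Retnla: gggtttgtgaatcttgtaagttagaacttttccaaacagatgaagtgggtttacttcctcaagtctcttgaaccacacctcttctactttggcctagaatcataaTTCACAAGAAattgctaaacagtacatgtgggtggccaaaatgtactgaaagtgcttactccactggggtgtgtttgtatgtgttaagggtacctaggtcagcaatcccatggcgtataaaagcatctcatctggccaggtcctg
Tnfaip3: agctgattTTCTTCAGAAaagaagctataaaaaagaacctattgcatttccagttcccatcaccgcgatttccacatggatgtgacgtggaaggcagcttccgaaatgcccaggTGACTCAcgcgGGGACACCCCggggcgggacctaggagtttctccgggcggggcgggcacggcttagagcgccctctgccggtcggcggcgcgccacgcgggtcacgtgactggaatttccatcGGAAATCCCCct
A match is a description of these letters and was not tested for binding.

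The LPS libraries of the same mutants share no library with the mock-treated comparison, although all groups entered a single fit and whether their cells came from the same mice was not given. There 6 genes were called at 0.01 (0.0618%), 3 higher and 3 lower in K810R, and among the 8 genes above only Ccl8 was called again. That call was lost in 5 of the 6 fits that left out an LPS library of either mutant, with an adjusted p of up to 0.0287, and kept only without K810R replicate 3. Without K810R replicate 2 no gene was called with LPS. Its values after LPS were 4.69, 4.15 and 4.86 FPKM in K730R and 0.855, 0.531 and 1.30 in K810R (log2 difference -1.57 ± 0.22, adjusted p = 0.0043), and the difference was thus as large with LPS as without it. Retnla, short of 0.01, had 10.6, 13.6 and 30.2 FPKM in K730R and 3.18, 2.87 and 2.87 in K810R (log2 difference -2.14 ± 0.33, adjusted p = 0.0121). Marco had 124, 153 and 165 FPKM in K730R and 89.9, 86.8 and 81.0 in K810R (log2 difference -0.76 ± 0.13, adjusted p = 0.0183), and Bcar1 had 1.40, 1.15 and 1.56 in K730R and 3.14, 2.62 and 2.73 in K810R (log2 difference 0.69 ± 0.14, adjusted p = 0.0362).

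Ccl5, Ptges and Ass1 were far more abundant after LPS. Ccl5 had 9723, 10597 and 9414 FPKM in K730R and 9916, 6498 and 7540 in K810R after LPS, and the groups overlapped (log2 difference -0.33, adjusted p = 0.24). Ptges reached 1256 to 1402 FPKM in K730R and 804 to 1166 in K810R (log2 difference -0.38, adjusted p = 0.57), and Ass1 152 to 180 and 129 to 141 (log2 difference -0.32, adjusted p = 0.49). Neither overlapped between groups. In the test of the difference between the 2 conditions, neither Ccl5 (adjusted p = 0.0825), Ptges (0.27) nor Ass1 (0.21) passed.

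Hp was the only gene whose difference between the mutants changed with LPS at 0.01 (0.0103% of genes tested). After LPS it stood at 1082, 1174 and 941 FPKM in K730R and at 1632, 1567 and 1461 in K810R, so the order of the mutants was opposite to that without LPS and the groups again did not overlap. The difference after LPS minus that without it was 1.84 ± 0.20 on the log2 scale (adjusted p = 0.0014), and the call held in all 12 fits that left out a library of either mutant, with a highest adjusted p of 0.00932. The difference after LPS on its own, 0.55 ± 0.14, did not pass (adjusted p = 0.0666).

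Of the 23 genes higher in K810R at 0.05 without LPS, 22 were also higher with LPS. Of the 22 lower genes, 18 were also lower. Gpx8, Hand2 and Cavin2, among the 23, passed the filter on low values only with K810R libraries counted, which favours the higher count. Among all genes with a positive difference without LPS, 74.2% had the same sign with LPS, and among those with a negative difference 37.2%. The median difference of the 23 was 1.13 without and 0.72 with LPS, and that of the 22 was -1.02 and -0.29. The mesothelial and fibroblast list stayed separate between the mutants, with summed levels of 72.4 to 76.3 FPKM in K730R and 180 to 186 in K810R after LPS. TLR4-WT libraries after LPS spread from 64.8 to 227 FPKM, across the range of both mutants. The cell cycle list had a median of 0.63. Its mean log2 level after LPS was 1.84 to 1.89 in K730R, 2.44 to 2.52 in K810R and 1.96 to 2.46 in TLR4-WT. NF-κB targets had a median of -0.31 after LPS. Over all genes the median after LPS was 0.13, with 6719 of 9707 differences positive.

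**Figure D5:**
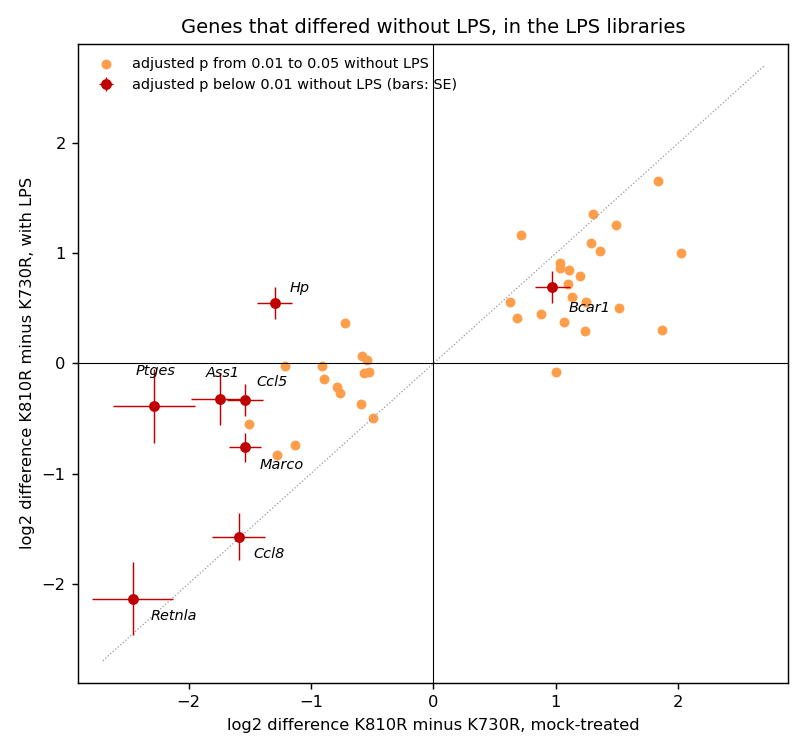
The 45 genes with an adjusted p below 0.05 without LPS, with the log2 difference between K810R and K730R in mock-treated libraries on the x axis and in LPS libraries on the y axis (red: adjusted p below 0.01, with SE bars, orange: from 0.01 to 0.05, dotted line: equal differences). Ccl8 lies on the line, Ccl5, Ptges and Ass1 lie between -0.38 and -0.32 on the y axis, and Hp is the labelled gene with opposite signs.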

How the data were processed

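RNA-seq was available as tables of FPKM that the authors deposited, 1 per library, with a row for each transcript event (first exon, last exon, splicing) and an Ensembl mouse gene number. Aligner and counting program were not given in the sources used here, nor was strand use, so overlapping antisense genes cannot be told apart. The labels list a human build, but 14126 of 14138 gene numbers and 92.8% of rows matched the GRCm38 annotation. Without counts, depth is unknown and precision rests on 3 libraries per group. For each gene the larger of the summed first-exon and summed last-exon FPKM was taken, from events on the strand and span of the named gene, which dropped 5.99% of the FPKM of these events. Genes that reached 1 FPKM in 3 or more of the 18 libraries were tested on log2(FPKM + 1), which understates changes of low genes, with limma 3.58.1 in R 4.3.3, all 6 groups in a single fit, an intensity trend and Benjamini-Hochberg adjustment, called below 0.01 as in the study. The fit was tested on simulated data.

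Genes were named by rule: called genes without overlap, up to 15 per direction, filled to 8 per direction by unadjusted p, Tlr4 and the most abundant members of its pathway, called or leading list members, and genes whose difference changed with LPS. The text gives a selection of the list members. Genes named beyond the rule (Nos2, Il6, Il12b, Myd88, Tirap, Cdkn1a, Cd3d, Cd4, Lyz2, Cd14, Cd5l, Camp) were chosen after their values were seen. The members and the gene lists, written from general knowledge, were chosen with earlier results of these data known. Alternatives varied the pseudocount, filter, scaling, trend, weights, block, libraries and events.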

Additional observations from a re-analysis of the deposited data

Results flagged for a closer look

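Hp, which encodes haptoglobin, was the gene whose difference between the mutants changed between mock-treated and LPS-treated macrophages, by 1.84 ± 0.20 on the log2 scale (limma, adjusted p = 0.0014). Every K810R library lay below every K730R library without LPS and above every K730R library with LPS. No test for an outlying value was run within groups, which held 3 libraries each.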

How the results depend on the processing

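All 8 called genes kept their direction under every alternative that gave a value. The count of 8 genes called without LPS became 20 with no filter on low values, 14 with quantile normalization, 17 with library weights, 3 with the 9 mock-treated libraries alone (Marco, Ccl5 and Hp) and 5 with first-exon sums only. With the 6 compared libraries alone it was 1, and that was none of the 8 but Gm4617, named after its value was seen and listed at 0 in several libraries. At an adjusted p below 0.05 it was 45. Leaving out each mock-treated library of either mutant gave 3 to 11 calls (3 without K810R replicate 1 or K730R replicate 2, 4 without K730R replicate 3, 5 without K810R replicate 2). Leaving out each LPS library of either mutant, chosen after seeing the data, gave 6 to 10. No TLR4-WT library was left out. With LPS, 6 calls became 15 with libraries scaled by the median of ratios, 10 with all rows of the gene number and 118 at 0.05, and 0 to 9 with an LPS library left out, 0 without K810R replicate 2 (limma, 1553 genes at an unadjusted p below 0.05) and 1 without K730R replicate 2. The single gene whose difference changed with LPS became 3 with no filter, 2 with all rows and 2 at 0.05, and 1 to 4 with a library left out. Replicate numbers are shared between groups, but same-numbered K810R and K730R libraries did not deviate together (r = -0.104, -0.0383 and -0.158), so the numbers were not taken as pairs. With a replicate block, 5 genes were called without LPS, all lower, 4 with LPS, and 0 for the change with LPS, where Hp had an adjusted p of 0.0102 and limma gave 742 genes at an unadjusted p below 0.05. Over the 20 named genes, 354 values stayed on the same side of the threshold, 48 lost it, 26 passed it and 0 reversed. Settings that leave out libraries assume that the remaining libraries vary like the other groups. FPKM values carry no depth, so low genes such as Bcar1 and Hand2 have no counting interval.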
